A study of Mus musculus with 14 samples.

Results

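The cells described here came from the mouse hindbrain at embryonic day E14.5, held messenger RNA of both Neurod1 and Reln, and are called postmitotic only in that no message of the division genes Mki67 and Top2a was found in them. They were chosen from the E14.5 libraries by raw counts of unique molecular identifiers (UMIs, each standing for 1 captured RNA molecule). A cell had to have at least 1000 detected genes and less than 10% of its UMIs from mitochondrial genes. It then had to hold at least 3 UMIs of Neurod1 and at least 2 of Reln, and 0 UMIs of Hoxb2, Hoxb3, Hoxb4 and Hoxb5 together and of Mki67 and Top2a together, and cells at 0 for the latter pair are called non-dividing below. These limits left 2181 of the 49696 E14.5 cells that passed on genes and mitochondrial UMIs, and 122658 cells passed in the whole series.

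The study compared mouse embryos in which the transcription factor Atoh1 carried the phosphosite change S193A with control embryos. Controls were Atoh1 Cre/+; Rosa lsl-tdTomato/+ and mutants, named Atoh1S193A/-, were Atoh1 Cre/S193A; Rosa lsl-tdTomato/+, all on C57BL/6J, so that every embryo of both genotypes carried 1 Atoh1 allele replaced by Cre and 1 tdTomato reporter. Each of the 6 E14.5 libraries held the hindbrain of 1 embryo, with 3 embryos per genotype taken as littermate pairs that share a replicate number, and tdTomato-positive, DAPI-negative cells were sorted after papain dissociation. Because Cre stood at the Atoh1 locus, the sort was limited to cells of the Atoh1 lineage, and because S193A is a single amino acid change that UMI counts do not show, the level of Atoh1 does not check the genotype labels.

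Atoh1-lineage neurons arise at the rhombic lip, the dorsal edge of the hindbrain. The rostral part of the lip, in front of the Hox-expressing hindbrain, gives rise first to glutamatergic neurons of the cerebellar nuclei and then to granule cell precursors and unipolar brush cells. Neurod1 encodes a basic helix-loop-helix factor of early postmitotic neurons in these lineages. Reln encodes reelin, a large secreted glycoprotein that acts through the receptors Vldlr and Lrp8 and the adaptor Dab1 and guides the placement of neurons, and in the cerebellum it is known from granule cell precursors and from neurons of the nuclear transitory zone.

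The 6 libraries held between 121762137 and 193872318 UMIs. The chosen cells had a median of 16609 to 21338 UMIs per library and the Reln-zero cells used for comparison a median of 16495.5 to 20099. Between 15 and 34 cell barcodes were shared by each of the 15 pairs of E14.5 libraries, and 1 barcode was shared by chosen cells of different libraries. The headers of the deposited files named Cell Ranger 3.1.0 for control replicates 1 and 2 and 5.0.1 for the other 4, so the version is partly confounded with genotype.

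The values that chose the cells are given as a description. Neurod1 stood at 842 to 982 counts per 1e+06 UMIs (CPM, over the summed UMIs of the chosen cells of a library) across the 6 libraries and Reln at 299 to 395 CPM. The median cell held 13 to 18 UMIs of Neurod1 and 5 to 6 of Reln, depending on the library. Among cells that met every other limit, 112 lay just inside the Neurod1 limit at 3 UMIs and 133 just outside at 2 UMIs, whereas 1450 held more than 10. The Reln limit cut a denser part of the range, with 333 cells just inside at 2 UMIs and 497 just outside at 1 UMI.

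The chosen cells made up 5.12%, 2.53% and 6.81% of all kept cells in control replicates 1, 2 and 3, and 5.35%, 1.93% and 4.52% in the mutant littermates of the same numbers. The lowest share of each genotype was that of replicate 2, and the genotypes overlapped. The control mean was 4.82% ± 2.15 (SD, n = 3) and the mutant mean 3.93% ± 1.78 (SD, n = 3), a difference of -0.885 percentage points that lay within the spread between embryos (2-sided exact permutation test, p = 0.6, where 0.1 is the smallest p that 3 against 3 allows). A limma fit of the logit shares of 6 classes of cells gave a log odds difference of -0.22 ± 0.34 (SE, adjusted p = 0.672), and with the littermate pairs as a block the SE was 0.15 and the adjusted p 0.295. Counted only among Hox-negative, non-dividing Neurod1 cells, the share was 49.8% ± 14.8 in controls and 50.0% ± 22.7 in mutants. A share of sorted cells cannot tell a change in these cells from a change in the rest of the sort, and in a sum over cells fewer cells of a kind and less RNA per cell cannot be told apart.

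**Figure D1:**
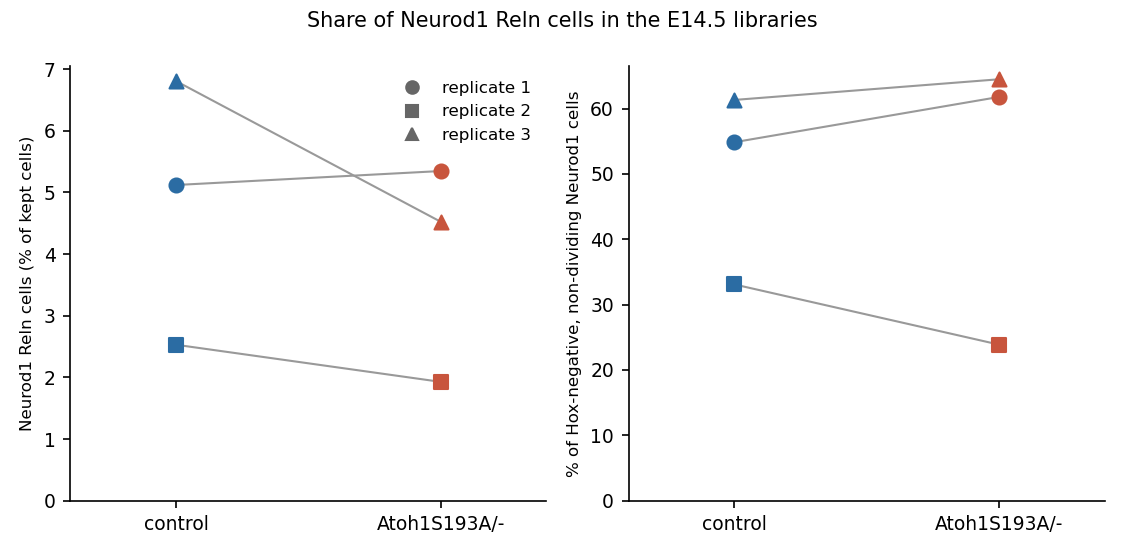
Each point is 1 library, with control and mutant littermates of the same replicate number joined by a line, and the vertical axes give the percentage of cells that met the Neurod1 and Reln rule, among all kept E14.5 cells and among Hox-negative, non-dividing Neurod1 cells. The pair of replicate 2 lies lowest in both panels, at 2.53% and 1.93% of all kept cells.

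To describe the cells labelled cerebellar, genes outside the rule were compared with their detection in Reln-zero cells. These were 1627 Neurod1 cells of the same libraries that met every other limit but held no Reln UMI. Cadps2 and Eomes are markers given with the label, so their detection does not check it. Cadps2, which encodes a protein that primes dense-core vesicles and is known from granule cell precursors, was detected in 35.8% of the chosen cells and 2.70% of the Reln-zero cells. Eomes, a T-box factor known from unipolar brush cells and their precursors, was detected in 59.5% and 18.1%. Pax6, a paired-box factor of the granule lineage, had a UMI in 95.3% of the chosen cells and 30.4% of the Reln-zero cells, Barhl1 in 93.0% and Zic1 in 98.2% of the chosen cells. The share of cells with a UMI depends on depth, so each cell was also thinned to 5000 UMIs. After thinning, Cadps2 remained in 16.3% ± 10.1 (SD over 6 libraries) against 1.08% ± 0.739, Eomes in 32.8% ± 4.48 against 10.4% ± 3.02 and Pax6 in 85.8% ± 2.85 against 19.3% ± 6.99, each higher in the chosen cells of all 6 libraries. Markers of the cerebellar nuclei were found as well, Meis2 in a larger share of the chosen cells than Cadps2 in each library. Before thinning Meis2 had a UMI in 39.5% to 84.4%, Lhx9 in 31.4% to 70.0% and Tbr1 in 12% to 30.4% of the chosen cells of a library, against 9.38% to 43.4% for Cadps2. After thinning Meis2 and Lhx9 were lower than in the Reln-zero cells in all 6 libraries, at 39.1% ± 15.6 against 79.7% ± 9.92 and 19.3% ± 6.096 against 42.5% ± 13.97.

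A UMI of Cadps2 was thus found in part of the chosen cells, and that share differed between litters, although a cell with 0 UMIs may still express the gene at this depth. In thinned cells it was detected in 18.3%, 5.80% and 27.6% of the chosen cells of control replicates 1, 2 and 3 and in 21.2%, 1.88% and 22.7% of those of mutant replicates 1, 2 and 3. Replicate 2 stood below the other pairs in both genotypes. The rostral markers En1 and En2, homeobox genes of the midbrain-hindbrain boundary region, had a UMI in 36.6% and 49.6% of the chosen cells before thinning.

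Of the markers of other cells, those of GABAergic neurons and the Hox genes were low in the chosen cells, while progenitor, cell cycle and dissociation genes were not. The 10 genes of a GABAergic list summed to 27.5 to 48.6 CPM in controls and 30.0 to 36.7 CPM in mutants, with Gad1 at 1.86 and Gad2 at 3.49 CPM. The 18 measured Hox genes outside the rule summed to 22.1 to 25.7 CPM in controls and 11.5 to 20.4 CPM in mutants. A list of 11 genes of blood, vessel and other non-neural cells summed to 2.08 to 12.5 CPM in controls and 1.41 to 512 CPM in mutants, and the highest sum came from mutant replicate 1, where Hba-a1 had 2223 UMIs in 75 cells and Hbb-bt 1882 UMIs in 53 cells. The list of glia and progenitor genes summed to 1085 to 1283 CPM, most of it from the intermediate filament gene Vim at 1043 CPM, while Sox2 stood at 8.38 CPM. The 18 cell cycle genes summed to 325 to 522 CPM in controls and 388 to 567 CPM in mutants, so the chosen cells were not free of replication messages. The 12 genes of the dissociation response summed to 1125 to 1837 CPM in controls and 1390 to 1959 CPM in mutants. Between 5.18% and 8.13% of the chosen cells of a library were among the 7.5% of cells with the highest Scrublet doublet scores.

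The question of what else set Neurod1 cells with Reln apart from Neurod1 cells without it was addressed by summing counts per library and fitting both populations in 1 edgeR model with a term for the library. Of 10016 genes tested, 977 (9.75%) passed an adjusted p of 0.05 with more than a 2-fold difference, of which 500 (4.99%) were higher and 477 (4.76%) lower in the chosen cells. Values below are CPM scaled by the trimmed mean of M values (TMM), given as the mean ± SD over the 6 libraries, with the log2 difference and its SE. Reln and Neurod1 are left out because the rule used them. A gene found in under 10% of the cells of 1 population entered only through the other, where it was high. Called genes named below that a joint filter at 10% of the cells of both populations leaves untested are Tlx3 (7.41%), Slc17a7 (8.80%), Pdgfra (7.67%), Dab1 (9.01%), Shox2 (5.70%), Brinp3 (8.72%) and Lamp5 (8.59%), and their calls are not independent of the filter.

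Genes of the granule lineage made up the clearest group. Of 20 tested, 15 were higher in the chosen cells, 0 were lower, and the median log2 difference was 1.53 against 0.02 over all genes tested. With the joint filter 13 of 19 were higher, without Tlx3, which was not tested, and Nfib, which fell just short of a 2-fold difference. Pax6 stood at 603, 479 and 492 CPM in control replicates 1 to 3 and at 608, 609 and 545 CPM in mutant replicates 1 to 3, against 52.5 to 143 CPM in the Reln-zero cells, so the populations did not overlap in any library. Its mean was 556 ± 59.7 against 99.9 ± 38.9 CPM, a log2 difference of 2.56 ± 0.23 (edgeR, adjusted p = 0.000256). Pax6 lies on chromosome 2 at 105668900 to 105697364 on the plus strand of GRCm38. Barhl1, a homeobox gene of Atoh1-lineage neurons, was at 309 ± 42.1 against 86.4 ± 37.6 CPM (log2 1.93). The study took Pax6 and Barhl1 as markers of the pontine nuclei as well as of the external granule layer of the cerebellum. The zinc-finger genes Zic2 (log2 1.24), Zic1 (1.58), Zic4 (2.14) and Zic5 (2.25) were higher, as were Nfia (1.93), Nfib (1.00), the ETS factor Etv1 (1.78), the homeobox gene Tlx3 (2.82), the neuroendocrine zinc-finger gene Insm1 (1.98) and the semaphorin gene Sema6a (1.48). Atoh1 and Cadps2, described below, were also among the 15.

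The other 5 members of that list did not pass. Barhl2 had a log2 difference of 0.03, the adhesion gene Cntn2 of 0.14 and Neurod2 of 0.41. Rbfox3, which encodes the neuronal antigen NeuN, reached 0.94 and Nfix 1.00, both with an adjusted p under the threshold but without a difference over 2-fold. Cntn2 stood at 186 to 272 CPM in the pair of replicate 2 and at 92.5 to 100 CPM in the other 4 libraries of the chosen cells.

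Among called genes with at least 20 CPM in either population Cadps2 had the second-largest difference. It stood at 47.1, 24.9 and 102 CPM in control replicates 1 to 3 and at 84.3, 7.84 and 84.0 CPM in mutant replicates 1 to 3, and at no more than 3.60 CPM in any library of Reln-zero cells. The log2 difference was 4.64 ± 0.18 (adjusted p = 2.95e-09). The gene passed the filter on detection in 10% of cells only through the chosen cells. A UMI of it was found in 21.6% of the cells of both populations, and with that joint filter the log2 difference was 4.63 (edgeR, adjusted p = 2.43e-09). The gene lies on chromosome 6 at 23262773 to 23839421 on the minus strand. Eomes was at 117, 91.3 and 100 CPM in controls and 162, 98.6 and 154 CPM in mutants, against 21.1 to 65.1 CPM in the Reln-zero cells (log2 1.70 ± 0.11, adjusted p = 5.1e-07). Other genes of the unipolar brush cell list, of which Lmx1a was also in the cerebellar nuclei list, went other ways. Calb2, which encodes the calcium-binding protein calretinin, was lower at 139 ± 57.5 against 535 ± 266 CPM (log2 -1.89), whereas Otx2 (0.60, adjusted p = 0.191) and Lmx1a (-0.49, adjusted p = 0.109) did not pass.

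Large positive differences besides Cadps2, among called genes of at least 20 CPM, were in A930017K11Rik, at 48.4 ± 7.997 against 1.12 ± 1.44 CPM (log2 5.61), Plekhg1 (4.19), the growth factor gene Pdgfc (4.04), the epidermal growth factor receptor gene Egfr (20.8 against 1.51 CPM, log2 3.77), Lynx1 (3.64), Tex14 (3.60), Ostf1 (242 against 19.8 CPM, log2 3.53) and the tetraspanin gene Cd9 (90.6 against 8.27 CPM, log2 3.49). Each was higher in the chosen cells of all 6 libraries. Except Ostf1 and Cd9 they entered the fit, like Cadps2, only through the chosen cells. Each passed the joint filter, at 16.0% (Egfr) to 54.4% (Ostf1) of the cells of both populations, and was called with it, where 802 of 9620 genes were called, 410 higher and 392 lower.

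Genes of the cerebellar nuclei were the opposite group. Of 12 tested, 0 were higher and 5 lower, with a median log2 difference of -0.88. Lhx2, a member of this list, was used in the study with Reln as a marker of the external granule layer. The LIM homeobox genes Lhx9 (71.0 ± 38.3 against 234 ± 78.1 CPM, log2 -1.78) and Lhx2 (32.5 ± 20.7 against 143 ± 69.4 CPM, log2 -2.19), the TALE homeobox gene Meis2 (332 ± 155 against 1174 ± 230 CPM, log2 -1.92), Pou3f1 (-1.81) and Irx3 (7.86 ± 2.93 against 83.8 ± 20.8 CPM, log2 -3.43) were lower. Tbr1, a T-box factor of the nuclei, was at 30.7 ± 15.0 against 57.4 ± 26.2 CPM and did not pass (log2 -0.92, adjusted p = 0.0665), nor did the vesicular glutamate transporter gene Slc17a6 (-0.83), which missed only the limit on size. Outside the list the largest negative differences were in Shox2 (3.60 against 50.8 CPM, log2 -3.85), Brinp3 (-3.28), Lmo1 (8.54 against 75.8 CPM, log2 -3.21), AC154782.1 (-2.89), the netrin-family gene Ntng1 (12.2 against 87.2 CPM, log2 -2.86), Tmem163 (-2.83), Irx5 (-2.74), C1ql3 (25.1 against 151 CPM, log2 -2.63) and Lamp5 (-2.62).

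**Figure D2:**
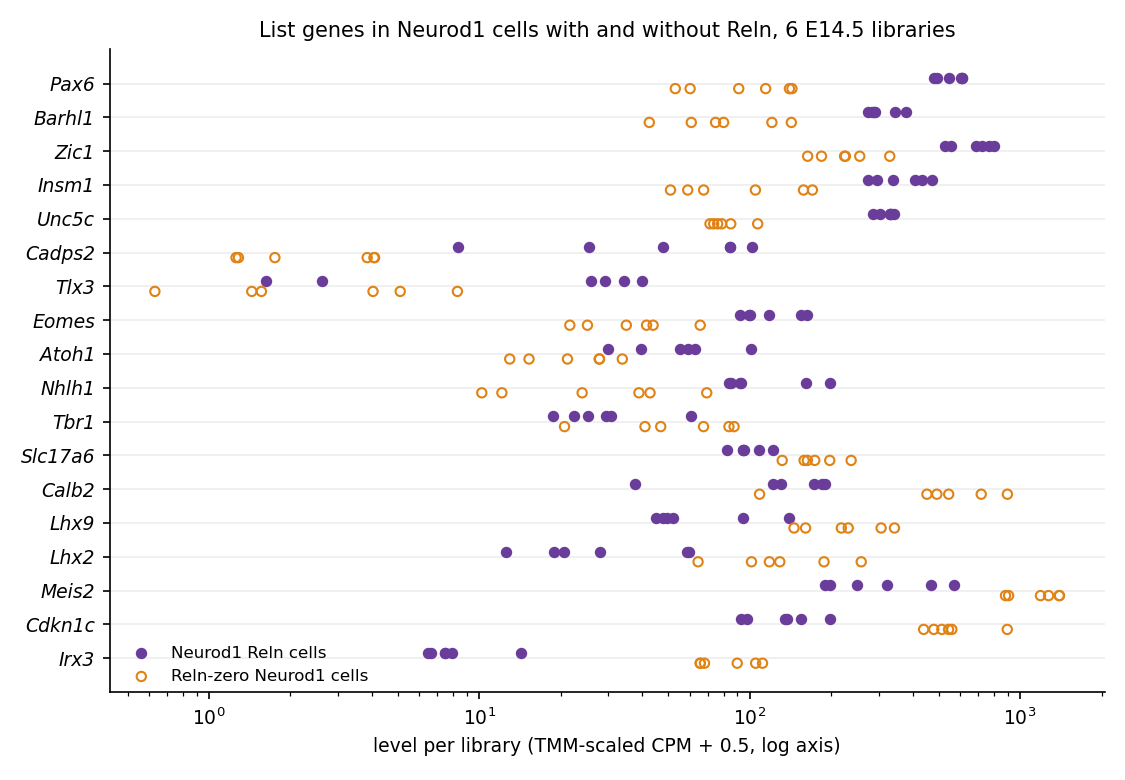
Each row is a gene and each point 1 of the 6 E14.5 libraries, filled for the chosen Neurod1 Reln cells and open for Reln-zero Neurod1 cells, with the level in TMM-scaled CPM plus 0.5 on a log axis. Pax6, Barhl1, Zic1 and Cadps2 lie higher in the chosen cells without overlap, Meis2 and Irx3 lie lower without overlap, and Tbr1 overlaps.

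Although dividing cells had been left out by Mki67 and Top2a, genes of DNA replication licensing were higher in the chosen cells. Mcm2 (log2 1.63), Mcm3 (1.83), Mcm5 (1.10) and Mcm6 (1.36), 4 of the 10 tested genes of a cell cycle list, passed and 0 were lower, with a median of 0.94. Mcm6 was at 59.8 ± 14.6 against 23.8 ± 8.85 CPM. In the cell cycle exit list of 11, the D-type cyclin genes Ccnd1 (38.6 ± 18.55 against 7.89 ± 3.67 CPM, log2 2.19) and Ccnd2 (440 ± 72.5 against 131 ± 84.8 CPM, log2 2.05) and the antiproliferative gene Btg2 (log2 1.43) were higher, and the CDK inhibitor gene Cdkn1c was lower at 136 ± 38.8 against 571 ± 165 CPM (log2 -2.07). A list of Sonic hedgehog signalling, the mitogen pathway of granule cell precursors, gave 4 higher of 8 tested, with a median of 1.04. These were Ccnd1, counted above in the cell cycle exit list, the co-receptor genes Boc (2.03) and Gas1 (1.58), and Sufu (1.16). Ptch1 and Mycn of the same list were not called, and the activity of the pathway was not tested. Atoh1 itself was higher at 57.4 ± 24.7 against 22.6 ± 8.08 CPM (log2 1.35, edgeR adjusted p = 0.0016). It stood at 180 CPM in dividing Hox-negative Atoh1 cells. Those cells were picked for at least 1 UMI of Atoh1 and at least 2 of Mki67 and Top2a together. Their Atoh1 level thus follows in part from the choice and is no measure of a fall.

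Among basic helix-loop-helix genes, Nhlh1, a factor of newly born neurons (119 ± 48.9 against 32.4 ± 22.3 CPM, log2 1.97), Hes6 (1.21), Hey1 (1.91) and Atoh1 were higher of 16 tested, and Id4 was lower (-1.78). Of 13 tested Notch pathway genes Hes6, Hey1 and Mfng (1.06) were higher and the ligand gene Jag2 lower (-1.33). Vim was also higher, at 1044 ± 80.8 against 316 ± 63.8 CPM (log2 1.74), as were Sox9 (1.19) and Pdgfra (2.60) of the 7 tested glia and progenitor genes, while Olig2 was lower (-1.86). Immediate-early genes that respond to dissociation stood higher in the same cells, Ier2 at 188 ± 61.2 against 64.1 ± 20.3 CPM (log2 1.54) and Egr1 at log2 1.55, 2 of 7 tested, and their part in these differences was not tested.

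Receptors of migration and axon guidance differed in both directions, with 5 higher and 7 lower of 26 tested. The netrin receptor genes Unc5c (320 ± 20.9 against 81.5 ± 13.2 CPM, log2 1.98) and Dcc (1.23), the chemokine receptor gene Cxcr4 (1.37), Sema6a and the ephrin gene Efnb1 (1.14) were higher. The ephrin receptor genes Epha4 (12.8 ± 3.06 against 74.3 ± 25.7 CPM, log2 -2.58) and Ephb1 (-1.01), the semaphorin receptor genes Nrp2 (-2.53), Plxna4 (-2.22) and Plxna2 (-1.45) and the Slit receptor genes Robo3 (-1.72) and Robo1 (-1.65) were lower. Unc5c spanned 286 to 340 CPM over the 6 libraries, and Robo3 4.63 to 86.5 CPM, with both libraries of replicate 2 above the other 4.

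Of 15 tested genes of the reelin pathway besides Reln, 0 were higher and 1 was lower in the cells with Reln. Dab1, which encodes the adaptor that is phosphorylated when reelin binds, stood at 6.10 ± 2.57 against 16.3 ± 2.96 CPM (log2 -1.44, edgeR adjusted p = 2.09e-05). It entered the fit only through the Reln-zero cells, with a UMI in 13.9% of them and 5.36% of the chosen cells. Its call is thus not independent of the filter. With the joint filter Dab1 was not tested, and 0 of the 14 tested genes of the list were called. The receptor genes Vldlr (17.6 ± 2.38 against 27.6 ± 4.98 CPM, log2 -0.62) and Lrp8 (24.6 ± 6.53 against 44.1 ± 4.80 CPM, log2 -0.84) and the ephrin gene Efnb3 (log2 -0.97) were lower in all 6 libraries without reaching a 2-fold difference. Over the list 2 genes were higher and 6 lower in all 6 libraries, where 25.2% of all genes tested were higher and 24.5% lower. The median of the list was -0.0013, near the 0.02 of all genes.

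Of genes of synapses and maturation, 3 of 12 in the first list and 2 of 18 in the second were called. A list of 12 genes of vesicle priming and glutamate signalling had a median log2 difference of -0.44, with 3 higher and 7 lower in all 6 libraries, where 25.2% of all genes tested were higher and 24.5% lower in all 6. Of these genes Cadps2 and the vesicular glutamate transporter gene Slc17a7 (9.46 ± 3.26 against 1.37 ± 0.814 CPM, log2 2.84) were higher and the NMDA receptor subunit gene Grin2b was lower (-1.23), and Cadps, the paralogue of Cadps2, had a log2 difference of -0.67. In a list of 18 neuron maturation genes the complexin gene Cplx2 was higher (326 ± 70.4 against 113 ± 21.8 CPM, log2 1.51), the synaptotagmin gene Syt4 lower (-1.49), and 16 did not pass, a share near that over all genes tested. Bcl2, which counters cell death, was the 1 higher gene of 14 tested in a cell death list (log2 1.01), and it fell just short of a 2-fold difference with the joint filter.

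Of the remaining lists, the 6 tested genes of rostral position gave 1 lower gene, Pax5 (18.51 ± 4.73 against 45.4 ± 24.0 CPM, log2 -1.16), with En1 at 0.84 and En2 at -0.07. In the list of caudal Atoh1-lineage genes 1 of 3 tested was higher (Barhl1) and 1 lower (Lhx2). When every cell was thinned to 5000 UMIs, 474 of 6513 genes were called, and the differences of Pax6 (2.55), Cadps2 (4.39), Eomes (1.59), Meis2 (-2.08) and Calb2 (-1.91) were close to those from all UMIs.

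The chosen cells were not uniform, and splitting them by single genes shows which levels went together. These splits compare cells of the same libraries by whether a UMI was found, so they are a description, they move with depth, and no test was made. The 350 cells with a Tbr1 UMI held Calb2 at 740 ± 299 CPM (mean ± SD over 6 libraries) against 12.9 ± 7.47 in the 1831 cells without. They also held more Lmx1a (264 ± 72.8 against 20.2 ± 5.18 CPM), more of the neurofilament messages Nefl (4390 ± 848 against 639 ± 208 CPM) and Nefm (2043 ± 1077 against 386 ± 224 CPM), and less Ccnd2 (78.9 ± 39.2 against 518 ± 66.3 CPM), in all 6 libraries. Mcm3 was at 1.78 against 25.3 CPM. In thinned cells Tbr1 was detected in 35.6% of the 337 cells with an Lmx1a UMI and in 3.21% of the 1838 cells without.

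Cells with Cadps2 had another profile. The 780 cells with a Cadps2 UMI held more En1 (145 ± 22.2 against 35.2 ± 9.60 CPM), En2 (81.8 ± 16.1 against 47.1 ± 3.32 CPM), Sema6a (271 ± 27.9 against 142 ± 17.2 CPM) and Robo2 (199 ± 24.3 against 103 ± 11.9 CPM) than the 1401 cells without, in all 6 libraries. They held less Calb2 (11.7 ± 9.46 against 208 ± 91.7 CPM), Lmx1a (18.2 ± 10.3 against 88.4 ± 22.0 CPM), Otx2 (44.0 ± 31.9 against 123 ± 68.5 CPM) and Meis2 (190 ± 130 against 396 ± 133 CPM), also in all 6. For Meis2 this did not hold by detection at equal depth, since in thinned cells Meis2 was found in 31.3% of cells with and 36.0% of cells without a Cadps2 UMI and was higher beside Cadps2 in 4 of the 6 libraries. Cadps2 was found in 3.86% of thinned cells with an Lmx1a UMI and 22.9% of those without.

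Eomes was spread over both groups but went more with Lmx1a. In thinned cells Cadps2 was detected in 19.1% of cells with and 20.4% of cells without an Eomes UMI, with a higher share beside Eomes in 1 of the 6 libraries. Eomes was detected in 49.6% of the cells with and 30.4% of the cells without an Lmx1a UMI, with a higher share beside Lmx1a in all 6. The 1298 cells with Eomes held more Otx2 (120 ± 63.6 against 58.7 ± 30.6 CPM) and more of the basic helix-loop-helix gene Atoh7 (36.6 ± 24.2 against 14.7 ± 11.8 CPM) than the 883 without, and less Meis2 (247 ± 130 against 458 ± 202 CPM). The 929 cells that still held an Atoh1 UMI had more of the Notch effector Hes5 (60.6 ± 33.4 against 12.2 ± 10.8 CPM), Mcm3 (38.9 ± 17.7 against 7.23 ± 4.15 CPM) and Ccnd2 (671 ± 143 against 234 ± 74.9 CPM) and less of the microtubule gene Mapt (487 ± 116 against 846 ± 64.9 CPM) than the 1252 without.

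**Figure D3:**
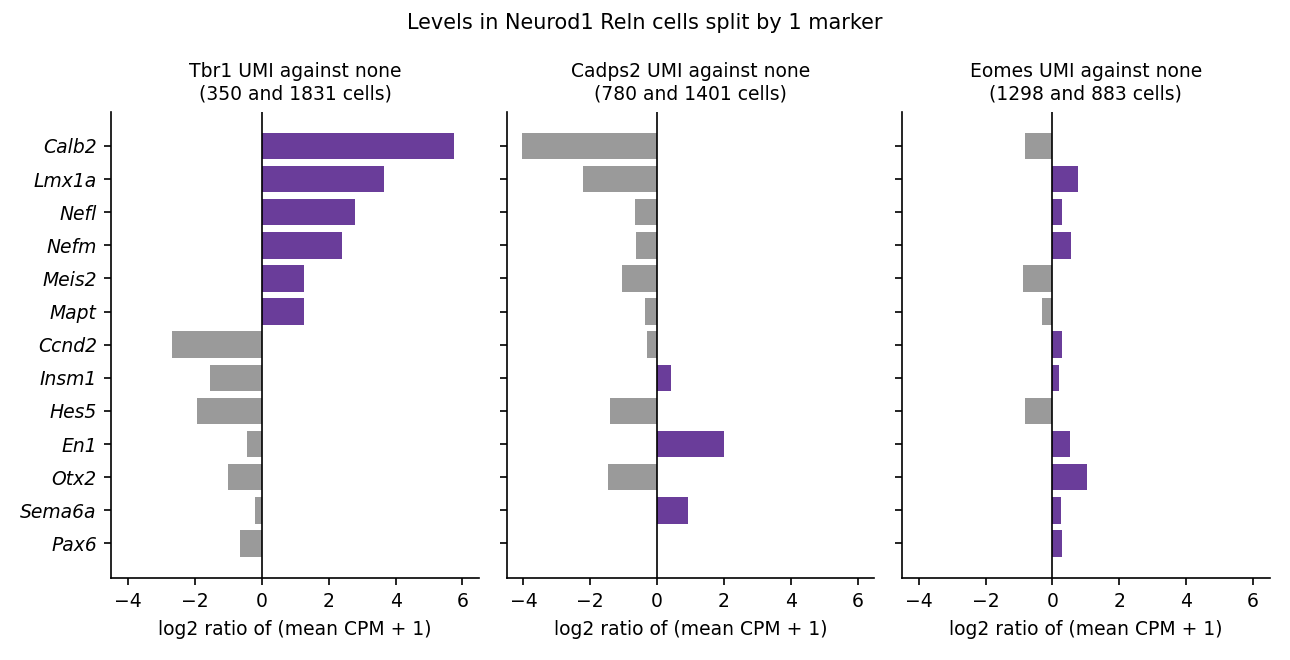
Bars give the log2 ratio of mean CPM plus 1 over 6 E14.5 libraries between chosen cells with and without a UMI of Tbr1 (350 and 1831 cells), Cadps2 (780 and 1401 cells) and Eomes (1298 and 883 cells), with positive ratios to the right and no error bars. Calb2, Lmx1a, Nefl and Nefm are higher with Tbr1, En1 and Sema6a are higher and Calb2 lower with Cadps2, and the ratios for Eomes are smaller.

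The embryos of replicate 2 stood apart from the other 4 in part of the genes, whatever their genotype. Among the 9861 genes tested between genotypes, 17.4% were above and 16.5% below all other libraries in both embryos of that litter. The same count was not made for the other litters, whose embryos also deviated together from their genotype means. The correlation of littermates was 0.459, 0.633 and 0.580 for replicates 1, 2 and 3. Of 11 genes of the cerebellar nuclei list 8 were above and 0 below, and of 18 maturation genes 9 were above and 2 below. Of 26 migration genes 10 were above and 5 below, and of 10 cell cycle genes 0 were above and 6 below. Of 20 granule lineage genes 3 were above and 7 below, and of 7 unipolar brush cell genes 1 was above and 4 were below. Lhx9 stood at 94.6 and 139 CPM in replicate 2 against 44.4 to 51.4 CPM elsewhere, Meis2 at 470 and 566 against 188 to 322 CPM, Nhlh1 at 162 and 197 against 83.2 to 92.5 CPM, and Nefm at 1254 and 1321 against 335 to 566 CPM. Tlx3 was the reverse, at 2.13 and 1.12 CPM against 25.4 to 39.3 CPM, as was Cadps2. The part of this difference between litters in the results by genotype is given below by leaving each litter out.

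The effect of the S193A allele on the chosen cells was asked with an edgeR fit of the 6 summed libraries. Without the littermate pairs, 0 of 9861 genes passed an adjusted p of 0.05 with a log2 difference over 0.25, while 265 had an unadjusted p under 0.05, and DESeq2 called 3, Hrk, Lef1 and Mybpc1. Littermates deviated together from their genotype means. With the pair as a replicate block 14 genes (0.142%) were called, 10 higher (0.101%) and 4 lower (0.0406%) in mutants, and 1126 had an unadjusted p under 0.05. The values below are TMM-scaled CPM with the log2 difference, SE and adjusted p of that blocked fit.

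Hrk, which encodes a BH3-only protein that promotes apoptosis by binding Bcl2-family members, had the largest difference. It stood at 3.90, 2.77 and 5.40 CPM in control replicates 1 to 3 and at 13.6, 10.3 and 18.4 CPM in mutant replicates 1 to 3. The genotypes did not overlap. The log2 difference was 1.80 ± 0.17 (adjusted p = 0.0191), against an adjusted p of 0.783 without the block. A UMI of Hrk was found in 5.36% to 6.20% of the chosen cells of controls and 8.94% to 12.8% of those of mutants, so that the gene passed the filter on detection in 10% of cells only through mutant libraries, and its test is not independent of that filter. Over the chosen cells of both genotypes together a UMI of Hrk was found in 8.21%, so that a joint filter at 10% leaves the gene untested. With the joint filter the blocked fit called 10 genes, all among the 14. Cdkn1c, Timp3 and Gm28050 were tested with it but missed the threshold (edgeR, adjusted p = 0.0503 each). With no filter it called 380 of 19966 genes, all 14 among them. Hrk lies on chromosome 5 at 118164648 to 118189478 on the plus strand.

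Lef1, which encodes a transcription factor that binds beta-catenin in Wnt signalling, stood at 11.7, 7.90 and 10.9 CPM in controls and 25.5, 19.6 and 24.1 CPM in mutants (log2 1.17 ± 0.13, adjusted p = 0.0317), with a UMI in 12.5% to 16.2% and 27.4% to 29.4% of cells. Wls, the carrier that brings Wnt ligands to the cell surface and a gene of the interior rhombic lip, stood at 13.3, 17.7 and 12.3 CPM in controls and 22.0, 44.7 and 28.7 CPM in mutants (log2 1.10 ± 0.14, adjusted p = 0.0317). Neither overlapped between genotypes. Mybpc1, a myosin-binding protein gene best known from muscle, was at 7.97, 6.19 and 4.86 CPM in controls and 16.7, 17.9 and 13.6 CPM in mutants (log2 1.34 ± 0.17, adjusted p = 0.0317), and it too passed the filter only through mutant libraries, with a UMI in 6.20% to 7.93% of control and 13.2% to 19.4% of mutant cells. With the joint filter, which it passed at 10.5% of the chosen cells, its log2 difference was 1.34 (edgeR with the block, adjusted p = 0.0395).

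Ccnd1, a D-type cyclin gene, stood at 30.3, 14.515 and 40.3 CPM in controls and 56.9, 26.5 and 62.6 CPM in mutants (log2 0.78 ± 0.10, adjusted p = 0.0333), and the genotypes overlapped because replicate 2 was low in both. Pax3, a paired-box gene of dorsal progenitors, stood at 37.6, 12.8 and 29.3 against 64.6, 31.8 and 48.6 CPM (log2 0.86, adjusted p = 0.0356). The amino acid transporter gene Slc6a15 (17.3 ± 1.47 against 30.1 ± 4.66 CPM, log2 0.81), Gm28050 (12.7 ± 2.71 against 23.3 ± 6.91 CPM, log2 0.88), Timp3, an inhibitor of metalloproteinases (17.9 ± 6.73 against 29.5 ± 12.1 CPM, log2 0.72) and 1500015O10Rik (10.8 ± 9.20 against 24.2 ± 19.98 CPM, log2 1.17) completed the 10. Pax3, Timp3, 1500015O10Rik and Pid1 were named after their values were seen.

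The 4 genes lower in mutants were Nefl, Rab15, Pid1 and Cdkn1c. Nefl, the light neurofilament chain, stood at 1383, 2206 and 1162 CPM in controls and 868, 1706 and 769 CPM in mutants (log2 -0.55 ± 0.07, adjusted p = 0.0317). It was lower in mutants outside the chosen cells as well. In CPM without TMM scaling it stood at 2283 ± 162 against 1436 ± 433 in Reln-zero cells and 672 ± 59.5 against 473 ± 150 in all kept E14.5 cells. Rab15, a small GTPase of endosomal recycling, stood at 41.9, 39.7 and 28.9 CPM in controls and 24.3, 20.7 and 16.4 CPM in mutants (log2 -0.84 ± 0.10, adjusted p = 0.0317) and was the only 1 of the 4 without overlap between genotypes. Pid1 was at 91.9 ± 24.8 against 62.4 ± 22.7 CPM (log2 -0.59) and Cdkn1c at 157 ± 36.3 against 114 ± 34.0 CPM (log2 -0.47). In CPM without TMM scaling Cdkn1c stood at 506 ± 39.0 in controls against 638 ± 232 in mutants in Reln-zero cells. Over all kept E14.5 cells it stood at 393 ± 43.0 against 337 ± 58.8. Of the 14 genes, 7 had no overlap between the genotypes' libraries (Hrk, Mybpc1, Lef1, Wls, Gm28050, Slc6a15 and Rab15), where 9.62% of all genes tested had none. The 14 were called on these same libraries, so that count is not independent of the call and adds no support to it.

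**Figure D4:**
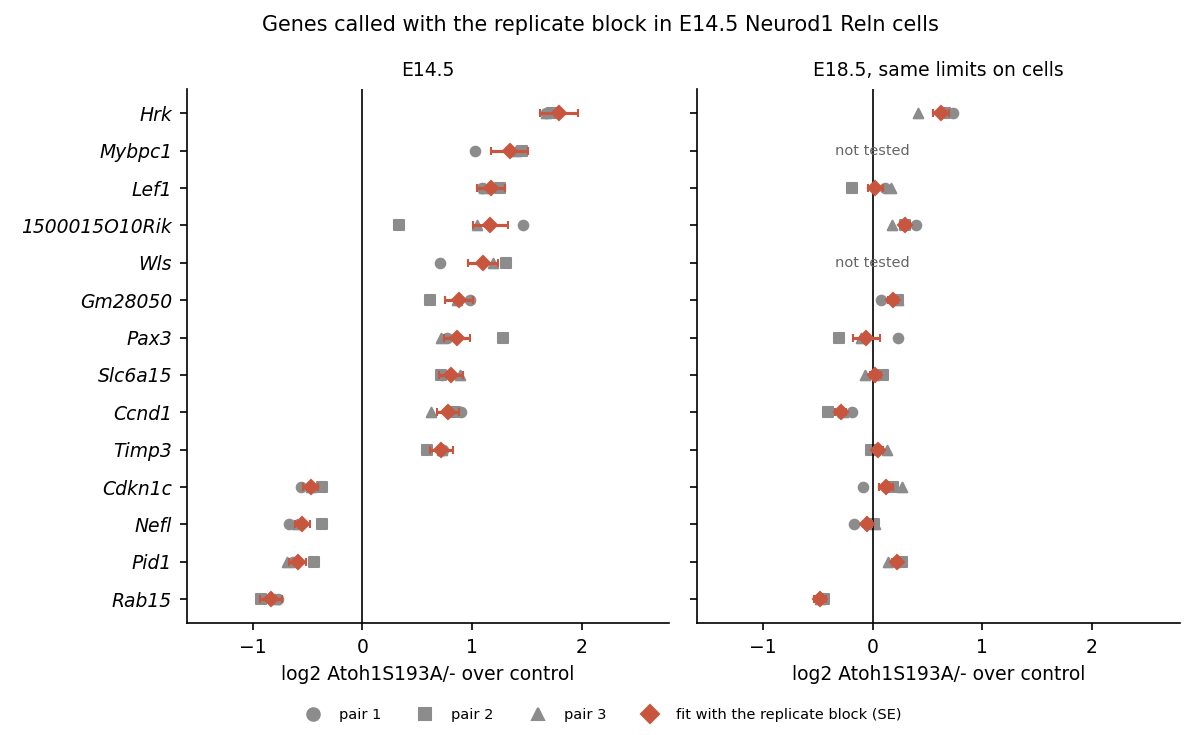
For the 14 genes called with the replicate block at E14.5, grey points give the log2 ratio of mutant over control in each littermate pair and red diamonds the fitted log2 difference with its SE, at E14.5 and in E18.5 cells of the same limits. At E14.5 the 3 pairs of every gene lie on 1 side of 0, and at E18.5 Hrk and Rab15 lie on the same side as at E14.5 while Ccnd1 and Pid1 lie on the other.

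The calls rested on the pairing and on particular litters. Without the litter of replicate 3 the blocked fit called 20 genes, of which 5 were among the 14 (Ccnd1, Lef1, Pax3, Rab15 and Wls), whereas without replicate 1 it called 95 and without replicate 2 it called 66, in each case with all 14 among them. Genes of the sex chromosomes differed within the pair of replicate 1 alone, with Xist at 1006 CPM in the control and 0 in the mutant and Ddx3y at 0 and 34.1 CPM, while both embryos of replicate 2 held Ddx3y without Xist and both of replicate 3 held Xist without Ddx3y. Of the 66 genes, 4 were Y-linked (Ddx3y, Eif2s3y, Kdm5d and Uty), and of the 20 genes Xist and Tsix were X-linked, whereas none of these 6 was among the 14 or the 95.

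The pair of replicate 3 was the only 1 with both libraries from Cell Ranger 5.0.1. In that pair the log2 ratio of mutant over control was 1.77 for Hrk, 1.49 for Mybpc1, 1.15 for Lef1, 1.22 for Wls, 0.64 for Ccnd1 and 1.06 for 1500015O10Rik. It was -0.59 for Nefl and -0.69 for Pid1. A fit of the 4 libraries of that version sets this 1 control against mutants of all 3 litters with no block, so that litters and genotype are mixed in it. That fit gave 1.39 for Hrk, 1.70 for Mybpc1, 1.08 for Lef1 and 1.32 for Wls, but 0.28 for Ccnd1, 0.27 for 1500015O10Rik, -0.08 for Nefl and -0.18 for Pid1.

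Lists of genes gave no further calls but differed in direction between littermates. Over all genes tested, 20% were higher and 17.5% lower in the mutant of all 3 pairs. Of 18 neuron maturation genes 0 were higher and 11 lower in all 3 pairs, namely Snap25, Stmn3, Dcx, Stmn2, Tubb3, Nefm, Nefl, Elavl3, Mapt, Gap43 and Ina, with a blocked median log2 difference of -0.18 against 0.02 over all genes. Of 10 cell cycle genes 7 were higher in all 3 pairs (Mcm2, Mcm3, Mcm5, Mcm6, Pcna, Hmgb2 and Rrm2, median 0.22) and 0 lower. Of 20 granule lineage genes 9 were higher and 0 lower (median 0.12), and of 8 Sonic hedgehog genes 5 were higher (Ccnd1, Cdon, Ptch1, Mycn and Boc, median 0.19) and 0 lower. Of 8 genes of the dissociation response 3 were higher (Ier2, Dusp1 and Egr1, median 0.24) and 0 lower, and the part of dissociation in the other lists was not tested. Of these genes only Ccnd1 and Nefl passed the adjusted p, and a direction shared by members of a list is no sign of independent changes, since the same 3 pairs of libraries give all of them.

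Other lists had genes in both directions. Of 14 cell death genes 3 were higher and 5 lower in all 3 pairs, with a median of 0.0020, and Hrk was the only 1 called. Of 14 Notch genes 5 were higher and 2 lower, of 14 reelin pathway genes 2 and 4, of 26 migration genes 5 and 4, of 11 cell cycle exit genes 5 and 3 (Ccnd1 and Cdkn1c called), and of 7 unipolar brush cell genes 3 and 2 (Wls called). The unipolar brush cell list had a blocked median of 0.42. Eomes had a blocked log2 difference of 0.42 (adjusted p = 0.21), Otx2 of 0.61 (0.15) and En1 of -0.51 (0.15), none of which passed.

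Atoh1 was the marker whose detection differed most in share of cells. In thinned cells it was detected in 18.04%, 15.2% and 11.1% of the chosen cells of control replicates 1 to 3 and in 23.3%, 31.9% and 18.54% of those of mutant replicates 1 to 3. The mutant was higher in all 3 pairs and the lowest mutant lay just above the highest control. The means were 14.8% ± 3.47 and 24.6% ± 6.76 (exact permutation test, p = 0.1, the smallest possible, and 0.7 adjusted over 14 markers). Its level had a blocked log2 difference of 0.74 (edgeR, adjusted p = 0.42). In all kept E14.5 cells Atoh1 stood at 63.0 ± 25.1 CPM in controls and 94.5 ± 16.5 CPM in mutants, without TMM scaling. Slc17a6 had the same permutation p and adjusted p as Atoh1, at 29.1% ± 2.85 against 33.9% ± 2.09, and was also higher in the mutant of all 3 pairs. For the remaining markers the adjusted p was higher, among them Cadps2 (17.2% ± 10.9 against 15.3% ± 11.6), Eomes (31.8% ± 1.88 against 33.8% ± 6.61) and Tbr1 (10.9% ± 6.08 against 7.73% ± 2.09).

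Hrk differed in where it was found as well as in how much. In CPM of each population without further scaling, the chosen cells held 3.94, 2.71 and 5.30 in controls and 13.8, 10.4 and 18.55 in mutants, whereas the Reln-zero Neurod1 cells of the same libraries held 9.58, 8.71 and 16.8 in controls and 9.90, 8.92 and 15.3 in mutants. Control Reln-zero cells thus stood above control chosen cells in all 3 litters, and in the Reln-zero cells the genotypes overlapped. Dividing Hox-negative Atoh1 cells held 4.02, 1.22 and 5.31 CPM in controls and 14.9, 5.98 and 10.9 CPM in mutants, and all kept E14.5 cells 14.9, 16.3 and 17.8 CPM in controls and 28.3, 18.7 and 25.2 CPM in mutants, so that the difference was not limited to the chosen cells. A fit of both Neurod1 populations with a library term gave Hrk as the 1 gene of 10016 (0.00998%) whose genotype difference was called as unequal between them, with a difference of log2 differences of 1.92 ± 0.25 (edgeR, adjusted p = 0.0169), while 297 genes had an unadjusted p under 0.05. Hrk entered this fit only through the Reln-zero cells, and its UMI was found in 9.87% of the cells of both populations, so that a joint filter at 10% leaves it untested. With that joint filter 0 of 9620 genes were called (edgeR, 280 at an unadjusted p under 0.05), and with no filter 45 of 21116, Hrk among them.

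The Hrk UMIs were concentrated in few cells. Control replicates 1 to 3 held 25, 13 and 60 Hrk UMIs in 20, 12 and 41 chosen cells, and mutant replicates 1 to 3 held 111, 37 and 151 in 38, 19 and 49 cells. Cells with 3 or more Hrk UMIs numbered 1, 0 and 6 in controls and 10, 4 and 12 in mutants, 33 in all, with up to 28 UMIs in 1 cell. Pooled, these 33 cells held more Cdkn1c (522 against 120 CPM), Syt4 (406 against 92.6 CPM) and Meis2 (647 against 290 CPM) and less Neurod1 (445 against 916 CPM), Pax6 (285 against 554 CPM) and Otx2 (21.2 against 104 CPM) than the rest of the chosen cells, which is a description of 1 small pool.

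**Figure D5:**
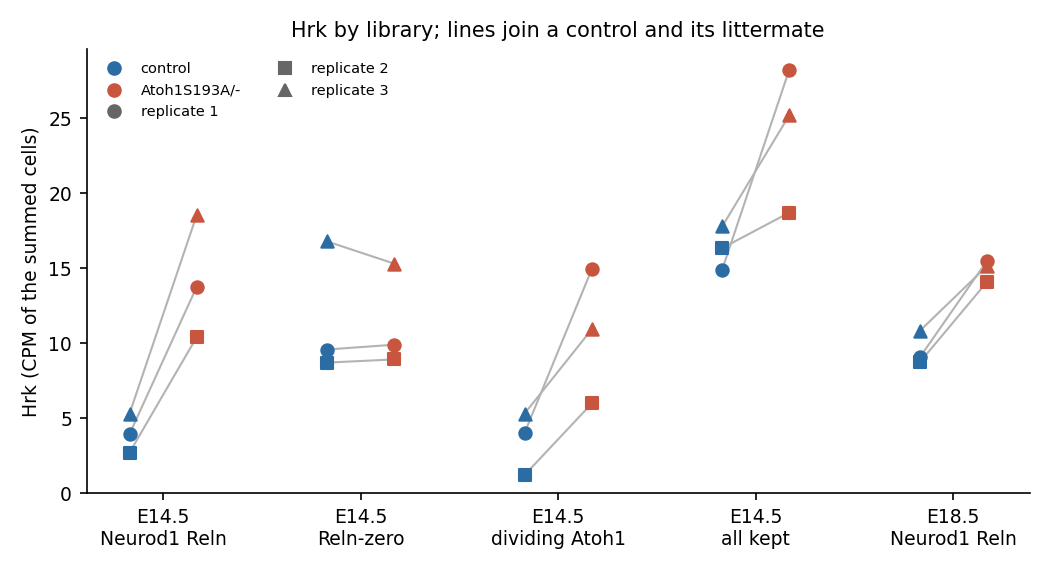
Points give the Hrk level of each library in CPM of the summed cells, blue for control and red for mutant, with lines joining littermates, in E14.5 chosen cells, Reln-zero Neurod1 cells, dividing Hox-negative Atoh1 cells and all kept cells and in E18.5 cells of the same limits. Control and mutant do not overlap in the chosen cells, at 2.71 to 5.30 and 10.4 to 18.55 CPM, and overlap in the Reln-zero cells.

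The same limits were applied to the E18.5 hindbrain libraries of the series, again 3 embryos per genotype, and to 2 control libraries of dissected pontine tissue from pooled pups at postnatal day 5 (P5). They found 2393 to 3261 cells (26.3% to 38.7%) in each E18.5 library and 224 (1.98%) and 345 (5.22%) at P5. Stages differ in age, depth and, at P5, dissection, so levels are set side by side without a test, in CPM without TMM scaling. Cadps2 stood at 58.3 ± 37.4 CPM at E14.5, 232 ± 8.05 at E18.5 and 118 and 188 CPM in the P5 libraries, and Eomes at 121 ± 31.6, 261 ± 42.6 and 283 and 162 CPM. Tlx3 was at 21.8 ± 16.4 and 101 ± 6.33 CPM at E14.5 and E18.5, and Zic1 at 676 ± 118 and 1590 ± 58.6 CPM. Lower at E18.5 were Meis2 (331 ± 153 and 15.0 ± 6.56 CPM), Tbr1 (30.5 ± 14.51 and 1.91 ± 0.264 CPM), Lhx9 (70.8 ± 38.2 and 15.2 ± 2.77 CPM), Atoh1 (57.6 ± 25.1 and 16.0 ± 4.16 CPM) and Nefl (1345 ± 524 and 469 ± 39.5 CPM). For all of these genes the E14.5 and E18.5 libraries did not overlap, as was so for 37% of the 9807 genes detected in 10% of the cells of either stage. The SD over libraries of Cadps2 was smaller at E18.5 although its mean was higher. That of Meis2 was smaller beside a lower mean.

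At E18.5, genes were fitted between genotypes in the same way. Without the block 0 of 9277 genes were called, with 229 at an unadjusted p under 0.05, and with it 68 (0.733%) were called, 26 higher and 42 lower in mutants. Of the 14 genes called at E14.5, 12 were tested (Mybpc1 and Wls were not), 8 had the same sign, and 4 were called. Hrk was higher in mutants again, at 9.62 ± 1.32 against 14.8 ± 0.474 TMM-scaled CPM (log2 0.63, edgeR adjusted p = 0.000327). A UMI of Hrk was found in 7.23% to 9.74% of the E18.5 cells of controls and 10.9% to 12.9% of those of mutants, so that it passed the filter through mutants again. It also passed a joint filter at 10.4% of the cells of both genotypes, with a log2 difference of 0.62 (edgeR with the block, adjusted p = 0.000307), where 62 genes (0.679%) were called in all. Rab15 was lower, at 23.6 ± 5.10 against 16.9 ± 3.71 CPM (log2 -0.48, adjusted p = 0.000141), and 1500015O10Rik higher (70.5 against 86.8 CPM, log2 0.29, adjusted p = 0.00179). Ccnd1 went the other way, at 43.4 against 35.5 CPM (log2 -0.29, adjusted p = 0.00603). Pid1 also turned, at 50.8 ± 3.96 against 59.1 ± 3.52 CPM and higher in the mutant of all 3 pairs (log2 0.22, adjusted p = 0.0112), but missed the limit on size.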

How the data were processed

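The deposited files held raw counts, UMIs per gene and cell barcode, that the authors made from droplet-based 3′ single-cell libraries with Cell Ranger (5.0.1 in the submitters' processing notes, genome mm10). All 31054 genes in the files were read. No column was left out. UMIs were summed over the cells of each library and population, so the replicate is the embryo (3 per genotype) and cells are not replicates.

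A gene detected in 10% or more of the cells of either group entered the test with edgeR 4.0.16 (quasi-likelihood, robust, TMM) in R 4.3.3, with Benjamini-Hochberg adjustment, and called at an adjusted p of 0.05 and a log2 difference over 0.25 between genotypes or over 1 between populations. The fit of populations held a term for each library. Genotypes were fitted without and with the littermate number as a replicate block, since same-numbered embryos were littermates in the study's methods. Their deviations from the genotype means correlated over genes at 0.459, 0.633 and 0.580 for the 3 pairs against -0.480 to 0.0682 for embryos of different litters. Deviations from a genotype mean cancel out over its 3 embryos, which lowers the values between litters when littermates correlate. That contrast thus follows in part from the calculation. Shares were tested with exact permutation tests (scipy 1.17.1) and limma 3.58.1, and DESeq2 1.42.0 was an alternative. Cells were thinned to 5000 UMIs where detection was compared. No doublets were removed in the reported values, and leaving out the 7.5% of cells with the highest Scrublet scores (scanpy 1.11.5) was an alternative, as were other limits on genes, mitochondrial UMIs, Neurod1 and Reln, other scaling and filters, leaving out embryos or litters, and Cell Ranger 5.0.1 libraries alone.

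The rule, the members and the 20 gene lists were chosen with earlier results of these data known. Named genes were the label markers, genes of the lists, and for each test up to 10 called genes per direction, ranked by log2 difference, with no overlap between libraries (for populations, the same direction in all 6 libraries and at least 20 CPM). Counts were simulated with 200 changed genes and 1 common dispersion for all genes. In the real data the spread differed between genes, with an SE without the block of 0.29 for Hrk and 0.93 for 1500015O10Rik. The simulated rates therefore do not say how many real changes were missed. On these counts the genotype fit with the block recovered 99% of 2-fold and 100% of 4-fold changes among 9861 genes under a litter effect. It called 9 unchanged genes, and without the block the values were 86%, 100% and 0. In the population fit of 10016 genes 2-fold and 4-fold changes were each recovered at 100% at an adjusted p alone, without the limit on size. For a genotype difference between populations they were recovered at 83% and 99%. Coordinates are from GENCODE annotation of GRCm38. Some genes that met the naming rule are not reported here. P-values of the permutation tests and of genotype fits without the block measure the spread between these embryos. With a library term or the block they measure how differences within libraries or within littermate pairs vary over these embryos or litters.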

Additional observations from a re-analysis of the deposited data

Results flagged for a closer look

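Hrk met the condition that its genotype difference was unlike in 2 populations of the same libraries. In the E14.5 Neurod1 Reln cells the mutants stood above the controls in all 3 pairs, while in Reln-zero Neurod1 cells 1 pair was lower and the others differed by less than the spread between litters. The difference of log2 differences was 1.92 ± 0.25 (edgeR with a term for each library, adjusted p = 0.0169). Without the library term it was 1.91 with an adjusted p of 1.00, and DESeq2 gave 1.90 with an adjusted p of 0.103. Leaving out the litter of replicate 1 gave 1.97 (adjusted p = 0.299) and leaving out replicate 2 gave 1.94 (adjusted p = 0.00665), while without replicate 3 Hrk was under the filter on detection. The count behind it was small, 397 Hrk UMIs over the chosen cells of all 6 libraries, and both populations came from the same embryos. Hrk entered the fit only through the Reln-zero cells, and a filter at 10% of the cells of both populations leaves it untested at 9.87%.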

How the results depend on the processing

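The share of the chosen cells differed by -0.885 percentage points between genotypes and changed sign to 0.293 among Hox-negative, non-dividing Neurod1 cells. It was -2.87 in Cell Ranger 5.0.1 libraries alone (1 control) and -1.57 at under 5% mitochondrial UMIs, and over the libraries left out 1 at a time it ranged from -2.03 to 0.117 (0.108 without control replicate 3, 0.117 without mutant replicate 2). For shares of cells with a marker, Cell Ranger 5.0.1 libraries alone turned Tbr1 to 1.33 and Meis2 to 0.643 points, and over embryos left out 1 at a time Tbr1 ranged from -5.48 to 0.248 and Meis2 from -17.7 to 1.66 (both highest without control replicate 2), Cadps2 from -7.71 to 4.70 (3.18 without control replicate 3, 4.70 without mutant replicate 2) and Eomes from -0.442 (without mutant replicate 1) to 5.73.

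The count of genes called between genotypes, 0 without pairing, was 14 with the replicate block, 3 with DESeq2 and 3 with no filter. Alternatives chosen after seeing the data gave 36 genes with DESeq2 and the block, and with the block 20 at under 5% mitochondrial UMIs, 10 without the top doublet scores, 2 after thinning, 15 at 5 or more Neurod1 UMIs, 26 at 1 or more and 20 at 4 or more Reln UMIs, 10 with the filter taken over cells of both genotypes and 380 with no filter, where more genes were tested. Over single libraries and litters left out the count ranged from 0 to 95. Without control replicate 3 it was 1 (AC160336.1), without the litter of replicate 3 also 1, and with the block it was 95, 66 and 20 without litters 1, 2 and 3. Of the 14 genes, 11 were called in DESeq2 with the block, 9 with the block without the top doublet scores and only Nefl with the block after thinning. Those not called without the top doublet scores were Wls, Slc6a15, Gm28050, Timp3 and 1500015O10Rik. After thinning 6296 genes were tested against 9861, so a gene not called there may not have been tested. Nefl was at log2 -0.08 in Cell Ranger 5.0.1 libraries alone, which hold 1 control and mutants of all 3 litters with no block, and at -0.59 in the littermate pair of that version. The log2 difference of Hrk ranged from 1.39 to 2.07 over the 28 settings that tested it, while Nefl was tested in 35. That range leaves out the settings in which Hrk fell under the filter on detection.

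Between populations, 977 genes became 474 after thinning, where fewer genes were tested, 2033 with no filter, where more were, and 802 with the filter over cells of both populations. The 1 gene whose genotype difference was called as unequal between populations became 0 without the library term, 0 with the filter over cells of both populations, which Hrk did not pass, and 45 with no filter, and ranged from 0 to 5 over litters left out. The cause of these moves was not tested except where said. In other values 7 changed sign, 760 stayed on their side of the threshold, 144 passed it and 14 no longer did. The replicate block changed no call on shares of cells.

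In exact permutation tests of 3 embryos per genotype, shares cannot reach a p under 0.1. Small libraries of chosen cells (160 in mutant replicate 2) limit genes with few UMIs, and litter 2 differed from the others in level.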

Other observations

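Genes of a stretch of chromosome 19 were higher together in the chosen cells than in Reln-zero Neurod1 cells, a pattern chosen after the values were seen. Carnmt1, which encodes a carnosine methyltransferase, stood at 450 CPM against 42.5 CPM (log2 3.43) and was higher in all 6 libraries. Its neighbours Ostf1 (log2 3.53), Nmrk1 (2.01) and, farther away, Pcsk5 (3.39) and Rorb (1.71) were higher as well. Between or beside them D030056L22Rik (log2 -0.09), Rfk (0.47) and Prune2 (0.41) were not called. On GRCm38 the called genes run from Pcsk5, which starts at 17432319 on chromosome 19, to Rorb, which ends at 19111196. Ostf1 on the minus strand ends at 18631823, Nmrk1 on the plus strand starts at 18631950, and Carnmt1 on the plus strand lies at 18670764 to 18707200. Whether reads of neighbouring genes were split by the counting was not tested.

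The chosen cells with a UMI of Lhx9 held more Nr4a2, a nuclear receptor gene (30.3 against 7.05 CPM), and more Pax5 (30.4 against 8.67 CPM) than those without. These are means over libraries of cells split by 1 gene, given with no test.

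Among genes that the blocked genotype fit did not call, Atoh7 had a log2 difference of 1.00 (edgeR, adjusted p = 0.069), Olig2 of 0.90 (adjusted p = 0.10) and Id3 of 0.63 (adjusted p = 0.12).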
